A study of Mus musculus with 6 samples.

Results

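The miR-30 family was followed in kidneys of MRL/lpr mice (genotype MRL/MpJ-Fas<lpr>/J) and of C57BL/6 mice, all female and 17 weeks old, with 3 small RNA libraries per strain. The lpr mutation hits Fas, a death receptor gene, and on the MRL background it goes with spontaneous lupus-like disease and nephritis; C57BL/6 mice were the wild-type controls. Background, lpr mutation and disease differ together between the strains and cannot be told apart, and no MRL mice without the mutation and no younger mice were analysed here. Whether the 3 libraries of a strain came from 3 animals is not stated in the labels, and p-values then cover only the spread between these libraries, which may be technical. The members were 10 mature sequences chosen by name out of 1542 entries in the table of read counts. The 5 from 5p arms were mmu-miR-30a-5p, mmu-miR-30b-5p, mmu-miR-30c-5p, mmu-miR-30d-5p and mmu-miR-30e-5p, and the 5 from 3p arms were mmu-miR-30a-3p, mmu-miR-30b-3p, mmu-miR-30c-2-3p, mmu-miR-30d-3p and mmu-miR-30e-3p (mmu, for mouse, is left off from here on). All 10 passed the filter on low counts, and 451 entries in all were tested.

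A microRNA (miRNA) is cut from a hairpin precursor, and usually one arm of the stem, the guide, is loaded into an Argonaute protein to repress messenger RNAs, while the other arm, the passenger, is mostly degraded. Targets are recognised mainly through the seed, bases 2 to 8 of the mature sequence. The 5p arms of the miR-30 family share a seed. In the kidney the family is known from podocytes, the filter cells of the glomerulus, where it protects against injury, and from tubular epithelium. These libraries come from whole kidney, so the cell that a read came from was not measured, and fewer cells of a type and less RNA per cell cannot be told apart.

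Mature sequences were matched by name in RefSeq (GRCm38.p6) for 6 of the 10 members, and they are shown because the seed defines the family and because near-identical members limit how reads can be assigned. Bases 2 to 8, the seed, are in capitals. The 5p arms of miR-30a, miR-30c and miR-30e, all with the seed GUAAACA, read as follows.
miR-30a-5p: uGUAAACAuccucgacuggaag
miR-30c-5p: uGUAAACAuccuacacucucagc
miR-30e-5p: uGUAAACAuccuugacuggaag
The 3p arms with a matched sequence, which leaves out miR-30b-3p and miR-30d-3p, fell into 2 seed groups, neither of which is the 5p seed.
miR-30a-3p: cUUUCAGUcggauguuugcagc
miR-30e-3p: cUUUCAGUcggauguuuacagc
miR-30c-2-3p: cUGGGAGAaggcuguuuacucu
miR-30c-1-3p: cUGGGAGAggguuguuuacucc
The last of these is the 3p arm of the other miR-30c hairpin and is no member of the set described here. Counted from 1 at the 5′ end, miR-30e-5p differs from miR-30a-5p by the single substitution C13U, and miR-30e-3p differs from miR-30a-3p by the single substitution G18A. miR-30c-1-3p differs from miR-30c-2-3p by A9G, C12U and U22C. How the authors assigned reads with a mismatch, or reads too short to tell 2 members apart, is not stated in the sources at hand, so the split between miR-30a and miR-30e is uncertain. miR-30b and miR-30d were the other 2 members of each arm. No sequence was matched for them, so how well their reads can be told from those of the other members was not examined.

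The 6 hairpins lie as 3 pairs in the mouse genome (GRCm38, GENCODE M21). Mir30a (chr1:23272269-23272339, plus strand) overlaps no other annotated gene, and Mir30c-2 (chr1:23291701-23291784, plus strand) overlaps an exon of the long noncoding RNA gene Gm27028, with 19361 bases between them. Mir30b (chr15:68337415-68337510) and Mir30d (chr15:68341208-68341289), both on the minus strand, lie 3697 bases apart and overlap exons of noncoding transcripts. Mir30c-1 (chr4:120769534-120769622) and Mir30e (chr4:120772606-120772697), both on the minus strand, lie 2983 bases apart in an intron of Nfyc, which codes for a subunit of the CCAAT-binding factor NF-Y. Mir30e also overlaps Mir30f, a miRNA gene on the other strand. The hairpins of Mir30c-2 and Mir30c-1 are shown because they give the same 5p sequence and different 3p sequences; the mature arms are in capitals.
Mir30c-2: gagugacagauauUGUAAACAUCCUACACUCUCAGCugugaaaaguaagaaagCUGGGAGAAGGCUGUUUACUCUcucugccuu
Mir30c-1: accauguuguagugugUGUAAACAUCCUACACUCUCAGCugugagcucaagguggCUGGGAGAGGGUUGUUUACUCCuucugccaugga
Reads of miR-30c-5p therefore cannot be ascribed to either locus, and of the miR-30c arms only the 3p arms separate the loci.

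The libraries held from 5259528 to 6460200 counts in MRL/lpr and from 5430246 to 6773829 in C57BL/6. miRNAs known from tubular epithelium were abundant, with a summed level from 141326 to 159215 CPM (the count relative to the TMM-adjusted size of its library) in MRL/lpr and from 115758 to 160341 CPM in C57BL/6, while the liver miRNA miR-122-5p stayed at or below 8.73 CPM in MRL/lpr and 11.2 CPM in C57BL/6. C57BL/6 replicate 2 stood apart: its 8 leukocyte and myeloid miRNAs summed to 29069 CPM, while those of replicates 3 and 1 reached 6068 and 6246 CPM. Most of the sum in replicate 2 was miR-146a-5p, at 25574 CPM. In that library 3 erythroid miRNAs summed to 594 CPM, against 2841 and 3496 CPM in replicates 1 and 3. Its tubular miRNAs summed to 115758 CPM, against 157600 and 160341 CPM in replicates 1 and 3. The Fas transcript is not a miRNA and was not measured.

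None of the 10 miR-30 members passed the test for a difference between MRL/lpr and C57BL/6 kidneys (edgeR's quasi-likelihood fit, threshold 0.05 after Benjamini-Hochberg adjustment). Over all 451 miRNAs tested, 28 passed, or 6.21%. At an unadjusted p under 0.05 the members gave 1 hit, miR-30c-5p, where the whole table gave 94 (20.8%), and DESeq2 and limma-voom each called 0 of the 10. All 5 log2 fold changes of the 5p arms (MRL/lpr over C57BL/6) were above 0, with a median of 0.18, and all 5 of the 3p arms were below 0, with a median of -0.26. miR-30c-1-3p, the 3p arm that is no member of the set, was above 0, at 0.24. The median over all tested miRNAs was -0.027, and 48.6% of them were above 0. The groups did not overlap for miR-30c-5p and miR-30d-5p, whose levels were higher in all 3 MRL/lpr libraries, nor for miR-30c-2-3p and miR-30d-3p, whose levels were lower in all 3. That is 4 of 10 members, against 28.8% of all tested miRNAs.

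**Figure D1:**
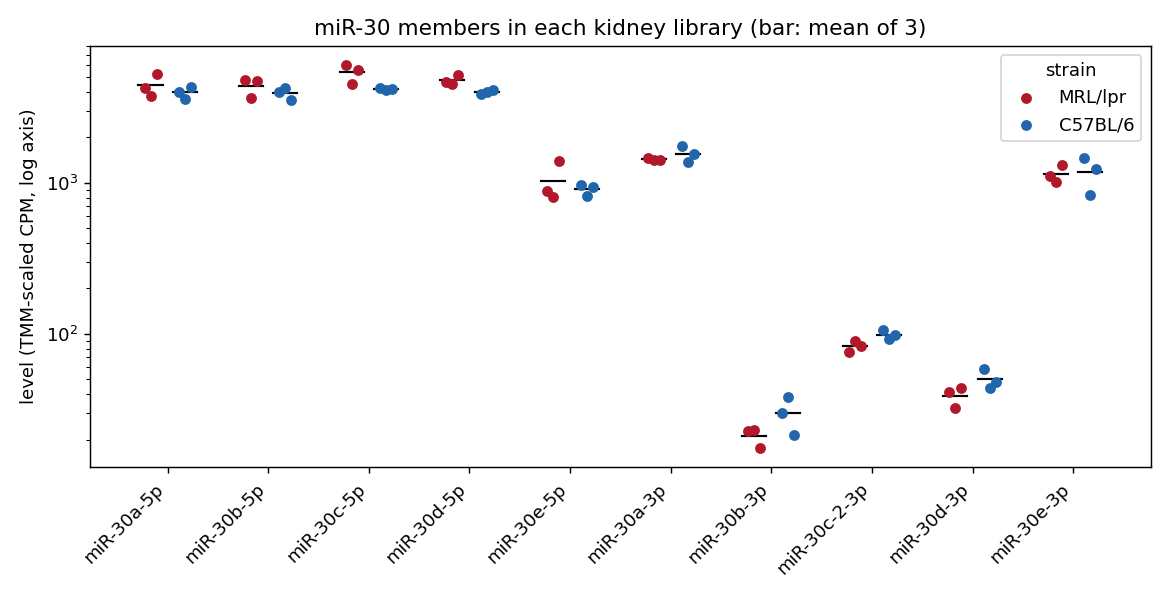
Level of each of the 10 miR-30 members in TMM-scaled CPM (log axis); each point is a library, MRL/lpr left and C57BL/6 right within each member, and the bar is the mean of 3. The 5p arms of miR-30a, b, c and d sit at 3537 to 6020.1 CPM, both arms of miR-30e and miR-30a-3p at 809 to 1751 CPM, and the 3p arms of miR-30b, c-2 and d at 17.5 to 106 CPM.

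miR-30c-5p was the most abundant member on average. It had 6020.1, 4541 and 5586 CPM in MRL/lpr replicates 1, 2 and 3, against 4238, 4103 and 4162 CPM in C57BL/6 replicates 1, 2 and 3. Every MRL/lpr library lay above every C57BL/6 library, and the MRL/lpr libraries were spread more widely. The means were 5382 ± 760.1 CPM in MRL/lpr and 4168 ± 67.2 CPM in C57BL/6 (SD, n = 3), a log2 fold change of 0.37 ± 0.16 SE with a 95% interval from 0.019 to 0.72. The edgeR adjusted p was 0.215 (unadjusted 0.0409), and it ran from 0.104 with library-size scaling to 0.506 without a filter on low counts. Its count joins the products of 2 of the 6 hairpins, on chromosomes 1 and 4.

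miR-30d-5p, from the chromosome 15 pair, had 4661, 4488 and 5213 CPM in the 3 MRL/lpr libraries, against 3900, 4005 and 4088 CPM in the 3 C57BL/6 libraries. The groups again did not overlap. Its log2 fold change was 0.26 ± 0.14 SE, with a 95% interval from -0.062 to 0.58 (edgeR adjusted p = 0.322). Its neighbour miR-30b-5p had 4815, 3667 and 4729 CPM in MRL/lpr, against 3969, 4257 and 3537 CPM in C57BL/6. Here MRL/lpr replicate 2 lay within the C57BL/6 range and the other two above it. The log2 fold change of miR-30b-5p was 0.17 ± 0.17 SE, with a 95% interval from -0.21 to 0.54 (edgeR adjusted p = 0.602), and 0.058 without C57BL/6 replicate 3.

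miR-30a-5p, the 5p arm of Mir30a on chromosome 1, had 4223, 3780.0 and 5292 CPM in MRL/lpr, against 3993, 3608 and 4297 CPM in C57BL/6. Only MRL/lpr replicate 3 lay above the C57BL/6 range. Its log2 fold change was 0.16 ± 0.17 SE, with a 95% interval from -0.22 to 0.54 (edgeR adjusted p = 0.630), and 0.039 without that library. miR-30e-5p, from the Nfyc intron, had 878, 809 and 1402 CPM in MRL/lpr, against 972, 824 and 939 CPM in C57BL/6. Its mean in MRL/lpr rested on replicate 3: the other two MRL/lpr libraries lay below the median of C57BL/6. The log2 fold change of miR-30e-5p was 0.18 ± 0.23 SE with all libraries, with a 95% interval from -0.34 to 0.69, and -0.084 without MRL/lpr replicate 3.

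The 3p arms spanned a wide range of levels. miR-30a-3p had 1458, 1420 and 1427 CPM in MRL/lpr, against 1751, 1382 and 1554 CPM in C57BL/6. miR-30e-3p had 1108, 1012 and 1319 CPM in MRL/lpr, against 1458, 837 and 1227 CPM in C57BL/6. The groups overlapped for both of these arms, and in C57BL/6 both were lowest in replicate 2. Their log2 fold changes were -0.12 ± 0.17 SE and -0.035 ± 0.23 SE (edgeR adjusted p = 0.695 and 0.949), and both signs turned with library-size scaling, to 0.035 and 0.14.

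The other 3p arms were minor products. miR-30c-2-3p had 75.7, 89.5 and 83.6 CPM in MRL/lpr, against 106, 92.9 and 98.5 CPM in C57BL/6. miR-30d-3p had 41.4, 32.2 and 43.7 CPM in MRL/lpr, against 58.5, 43.9 and 48.3 CPM in C57BL/6. For both, the highest MRL/lpr library lay just below the lowest C57BL/6 library, replicate 2. miR-30b-3p had 22.7, 23.1 and 17.5 CPM in MRL/lpr, against 30.1, 38.2 and 21.5 CPM in C57BL/6. Its groups overlapped, and its highest value was in C57BL/6 replicate 2. Log2 fold changes were -0.26 ± 0.21 SE for miR-30c-2-3p, -0.36 ± 0.24 SE for miR-30d-3p and -0.50 ± 0.27 SE for miR-30b-3p, with edgeR adjusted p of 0.530, 0.419 and 0.308. Leaving out C57BL/6 replicate 2 gave -0.26 for miR-30b-3p, and leaving out C57BL/6 replicate 3 gave -0.73.

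**Figure D2:**
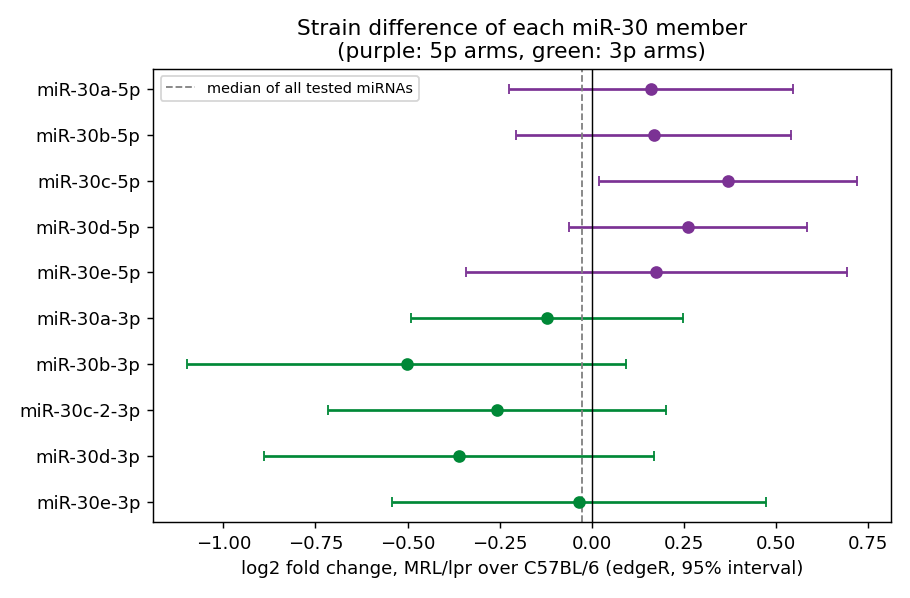
Log2 fold change of each member, MRL/lpr over C57BL/6, from edgeR with its 95% interval (purple 5p arms, green 3p arms); the dashed line is the median of all 451 tested miRNAs. All 5 of the 5p arms lie right of 0 and all 5 of the 3p arms left of it, and the interval of miR-30c-5p alone does not reach 0.

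The balance between the arms sorted the hairpins into 3 kinds. In counts, the 5p arm exceeded the 3p arm 213 ± 55.4-fold in MRL/lpr and 136 ± 26.8-fold in C57BL/6 for miR-30b, and 124 ± 13.9-fold in MRL/lpr and 80.9 ± 12.8-fold in C57BL/6 for miR-30d. Both are hairpins with a clear guide and passenger. miR-30a was less one-sided, at 3.09 ± 0.550 in MRL/lpr and 2.55 ± 0.247 in C57BL/6. For miR-30e the 3p arm was on average the more abundant one, with a ratio of 5p to 3p of 0.885 ± 0.154 in MRL/lpr and 0.806 ± 0.163 in C57BL/6 (SD, n = 3 each). MRL/lpr replicate 3, at 1.06, was the 1 library in which miR-30e-5p exceeded miR-30e-3p. Ligation of adapters favours some ends over others, so a ratio between arms is less certain than its comparison between libraries.

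Between the strains, the miR-30d ratio was 113, 139 and 119 in MRL/lpr, against 66.6, 91.3 and 84.6 in C57BL/6. Each MRL/lpr library lay above each C57BL/6 library. On the log2 scale the difference (MRL/lpr minus C57BL/6) was 0.61 ± 0.22 SE, with a 95% interval from 0.11 to 1.12. The miR-30b ratio was 212, 159 and 269 in MRL/lpr, against 132, 111 and 165 in C57BL/6. Here MRL/lpr replicate 2 lay below C57BL/6 replicate 3, and the log2 difference was 0.62 ± 0.27 SE, with a 95% interval from 0.0012 to 1.23. Neither passed over the 105 hairpins with both arms tested (limma, Benjamini-Hochberg adjusted p = 0.275 for miR-30d and 0.372 for miR-30b; unadjusted 0.0234 and 0.0497). Of the 105, limma called 0 (0%), and 14 had an unadjusted p under 0.05 (13.3%).

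The miR-30a ratio was 2.90, 2.66 and 3.71 in MRL/lpr, against 2.28, 2.61 and 2.76 in C57BL/6. The groups overlapped, and the log2 difference was 0.27 ± 0.22 SE, with a 95% interval from -0.24 to 0.77 (limma adjusted p = 0.683); without MRL/lpr replicate 3 it was 0.13. The miR-30e ratio was 0.793, 0.800 and 1.06 in MRL/lpr, against 0.667, 0.985 and 0.765 in C57BL/6. Its log2 difference was 0.14 ± 0.24 SE, with a 95% interval from -0.42 to 0.70 (limma adjusted p = 0.874), and it was 0.0024 without MRL/lpr replicate 3 and 0.30 without C57BL/6 replicate 2. Differences for all 4 hairpins were above 0, where 45.7% of the 105 were. A ratio within a library does not depend on the scaling between libraries. The groups were apart for 1 of the 4, miR-30d, and for 17.1% of the 105.

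**Figure D3:**
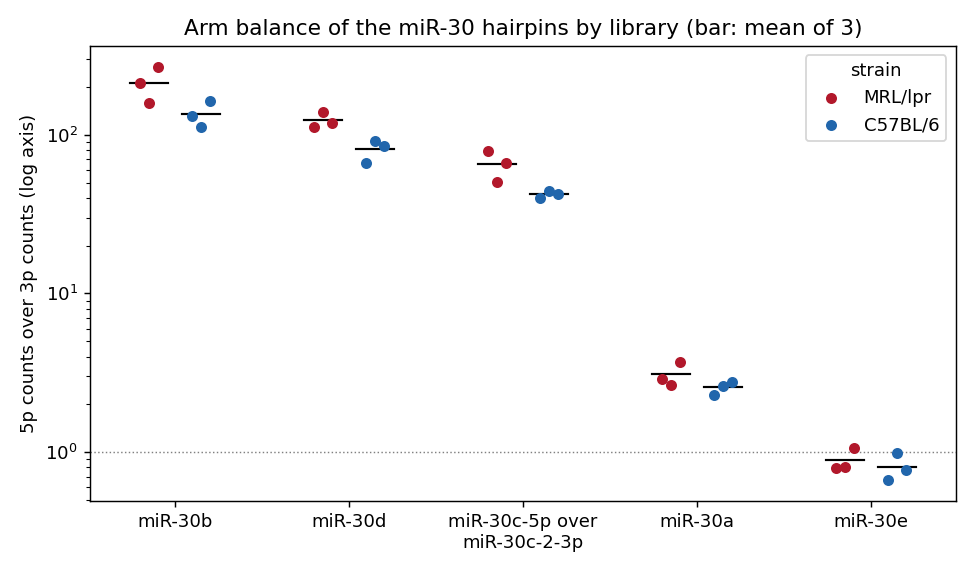
Counts of the 5p arm over counts of the 3p arm in each library (log axis; MRL/lpr left and C57BL/6 right, bar the mean of 3; dotted line, equal arms). miR-30b and miR-30d lie at 66.6 to 269, miR-30c-5p over miR-30c-2-3p at 40.0 to 79.5, miR-30a at 2.28 to 3.71 and miR-30e around 1.

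**Figure D4:**
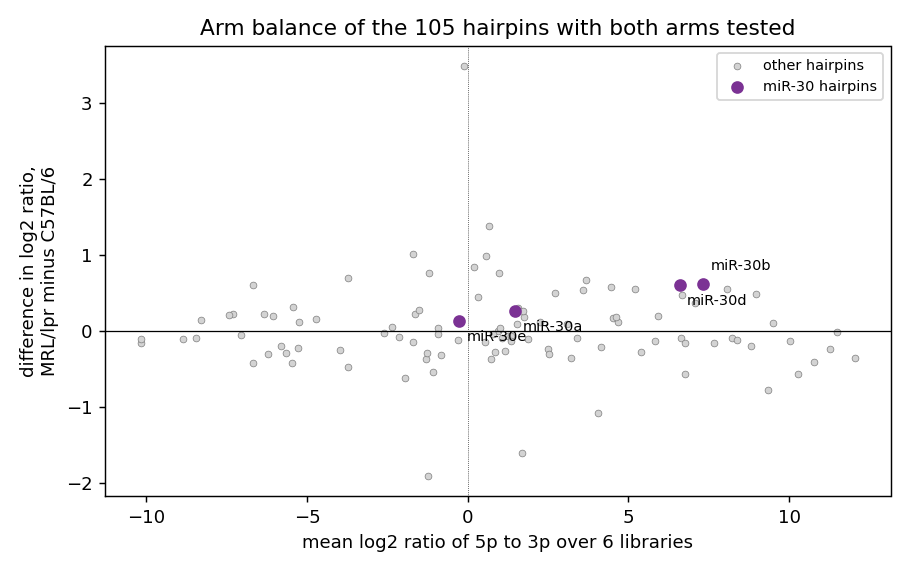
Each point is 1 of the 105 hairpins with both arms tested: mean log2 ratio of 5p to 3p over the 6 libraries (x) and its difference, MRL/lpr minus C57BL/6 (y). The 4 miR-30 hairpins lie above 0, at 0.14 to 0.62, among other hairpins that reach farther from 0 in both directions.

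For miR-30c the ratio is a description only, because 2 hairpins give the 5p arm. miR-30c-5p exceeded miR-30c-2-3p 79.5-, 50.8- and 66.8-fold in MRL/lpr, against 40.0-, 44.2- and 42.3-fold in C57BL/6, and the groups did not overlap. The 3p arm of the other hairpin, miR-30c-1-3p, had 242, 211 and 222 counts in MRL/lpr, against 191, 157 and 194 counts in C57BL/6 (log2 fold change 0.24 ± 0.24 SE, edgeR adjusted p = 0.600). Over both 3p arms together, the 5p arm was 45.3 ± 10.03-fold in MRL/lpr and 32.1 ± 2.78-fold in C57BL/6 (SD, n = 3).

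The 2 miR-30c loci can be compared only through these 3p arms. How far the ratio of the arms follows the output of the loci was not tested. Within a library, miR-30c-2-3p from chromosome 1 exceeded miR-30c-1-3p from chromosome 4 by 2.21-, 2.18- and 2.27-fold in MRL/lpr, against 2.71-, 3.68- and 3.26-fold in C57BL/6. The ratio was thus lower in all 3 MRL/lpr libraries. The share of miR-30c-1-3p in the 2 arms was 31.0% ± 0.438 in MRL/lpr and 23.9% ± 2.82 in C57BL/6 (SD, n = 3; exact two-sided permutation p = 0.1, the smallest that 3 against 3 can give). With 157 to 242 counts of miR-30c-1-3p per library, the 95% Wilson interval of this share in 1 library was up to ± 3.50 percentage points wide. It was chosen for description with its values known.

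The make-up of the 5p pool varied little. miR-30c-5p made up 26.9% ± 2.11 of the 5 summed 5p counts in MRL/lpr and 24.6% ± 0.222 in C57BL/6 (SD, n = 3), with 29.2%, 26.3% and 25.1% in the MRL/lpr libraries, against 24.8%, 24.4% and 24.4% in the C57BL/6 libraries. The groups did not overlap (exact two-sided permutation p = 0.1, again the smallest possible), and the difference in means of 2.31 percentage points was 1.14 without MRL/lpr replicate 1. The shares of miR-30d-5p were 24.0% ± 1.74 in MRL/lpr and 23.6% ± 0.632 in C57BL/6, and those of miR-30a-5p were 22.1% ± 1.66 in MRL/lpr and 23.4% ± 1.88 in C57BL/6. miR-30b-5p took 22.0% ± 1.23 in MRL/lpr and 23.1% ± 2.28 in C57BL/6, and miR-30e-5p took 5.08% ± 1.08 in MRL/lpr and 5.37% ± 0.413 in C57BL/6. For these 4 the groups overlapped, with exact two-sided permutation p from 0.5 to 0.9, and single libraries moved the differences. The difference in share (MRL/lpr minus C57BL/6) of miR-30d-5p was 0.451 percentage points with all libraries and -0.523 without MRL/lpr replicate 2, and that of miR-30e-5p was -0.289 with all libraries and 0.121 without MRL/lpr replicate 1. For miR-30b-5p it was -1.17 with all libraries and -0.0577 without C57BL/6 replicate 2, and for miR-30a-5p it was -1.31 with all libraries and ran from -2.25 to -0.372 with 1 library left out. The 95% Wilson intervals of 5p shares in single libraries reached at most ± 0.293 percentage points, for counting error alone.

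**Figure D5:**
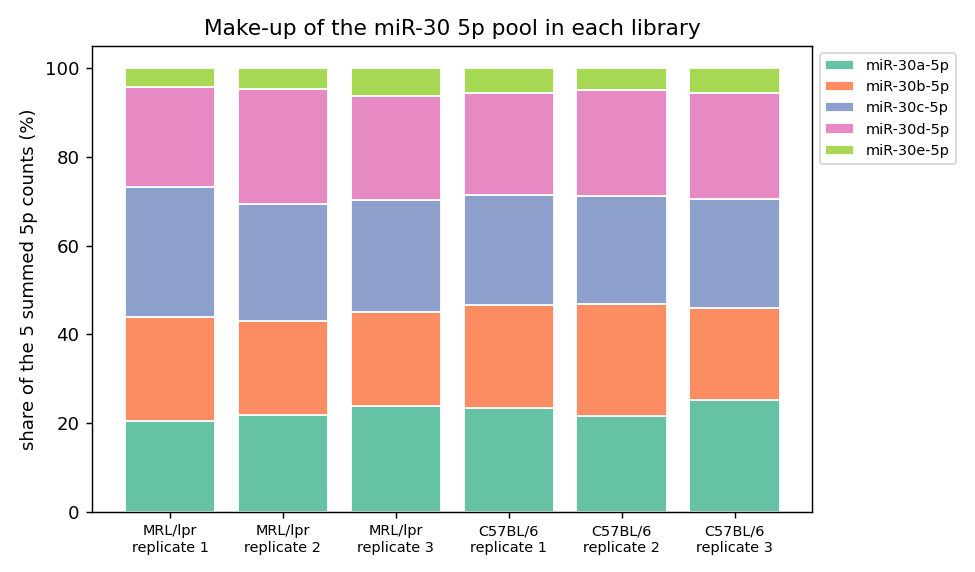
Share of each 5p member in the 5 summed 5p counts of each library (bars stacked to 100%; 3 MRL/lpr libraries left, 3 C57BL/6 libraries right). miR-30a, b, c and d each take between 20.5% and 29.2%, miR-30e takes 4.26% to 6.31%, and miR-30c-5p is largest in MRL/lpr replicate 1.

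The order of the 4 abundant 5p members was not fixed. miR-30c-5p exceeded miR-30d-5p in 6 of 6 libraries, by 1.01- to 1.29-fold, while miR-30a-5p exceeded miR-30d-5p in 3 of 6 and miR-30b-5p exceeded miR-30d-5p in 3 of 6. miR-30b-5p led in C57BL/6 replicate 2 and miR-30a-5p in C57BL/6 replicate 3, and miR-30c-5p led in the other 4 libraries. miR-30e-5p was the lowest 5p arm in every library, with 3.78 to 4.81 counts of miR-30a-5p for each of its own. Among all table entries the abundant 4 ranked between 36 and 44 in each library, and miR-30e-5p between 58 and 78.

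Among the 3p arms the pool was divided differently. miR-30a-3p made up 52.8% ± 3.04 of the 5 summed 3p counts in MRL/lpr and 54.0% ± 3.34 in C57BL/6, and miR-30e-3p made up 42.0% ± 3.30 in MRL/lpr and 39.8% ± 4.25 in C57BL/6 (SD, n = 3). These 2 members, which share the seed UUUCAGU, thus held most of the 3p reads in both strains. Their groups overlapped, and the difference in share had no steady direction. For miR-30a-3p it was -1.17 percentage points with all libraries, 0.720 without C57BL/6 replicate 2 and 0.544 without MRL/lpr replicate 3, and for miR-30e-3p it was 2.15 with all libraries and -0.276 without C57BL/6 replicate 2. miR-30d-3p took 1.43% ± 0.156 in MRL/lpr and 1.73% ± 0.0977 in C57BL/6, and its groups did not overlap (exact two-sided permutation p = 0.1). For the other 4 of the 3p arms the exact p ran from 0.3 to 0.7.

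Summed over the family, the 5 members of the 5p arm held 20598, 17286 and 22221 CPM in MRL/lpr, against 17072, 16797 and 17023 CPM in C57BL/6. The lowest MRL/lpr library, replicate 2, lay just above the highest C57BL/6 library. The ratio of the means was 1.18, and no test was made on a sum over the members. The 3p arms summed to 2706, 2577 and 2891 CPM in MRL/lpr, against 3404, 2394 and 2950 CPM in C57BL/6, with a ratio of the means of 0.934 and groups that overlapped. With library-size scaling that ratio lay above 1 (log2 0.065, against -0.098 with TMM). All 10 members together made up 2.55%, 1.95% and 2.73% of the counts in MRL/lpr, against 1.84%, 1.92% and 1.89% in C57BL/6, with 95% Wilson intervals of at most ± 0.0136 percentage points.

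By locus, the arms of miR-30b and miR-30d, the chromosome 15 pair, summed to 9251 ± 930.6 CPM in MRL/lpr and 7999 ± 326 CPM in C57BL/6. The miR-30a arms summed to 5867 ± 776 CPM in MRL/lpr and 5528 ± 469 CPM in C57BL/6, and the miR-30e arms to 2176 ± 479 CPM in MRL/lpr and 2086 ± 391 CPM in C57BL/6 (SD, n = 3). The groups overlapped for all 3 sums, into which miR-30c was not counted. Within the chromosome 15 pair, miR-30b-5p and miR-30d-5p were nearly equal, with a ratio of 0.919 ± 0.109 in MRL/lpr and 0.982 ± 0.104 in C57BL/6. Their passenger arms stood at 0.556 ± 0.158 in MRL/lpr and 0.610 ± 0.229 in C57BL/6.

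Outside the family, the seed GUAAACA was found in the RefSeq sequences for miR-384-5p. It had 21, 14 and 6 counts in MRL/lpr, against 20, 28 and 19 in C57BL/6, so it added at most 4.50 CPM to the 5p pool, whose lowest sum was 16797 CPM. Its log2 fold change was -0.78 ± 0.46 SE (edgeR adjusted p = 0.363).

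miRNAs known from podocytes, tubular epithelium and other cell types were read beside the family. Of 3 miRNAs known besides miR-30 to be enriched in podocytes, none passed, and their median log2 fold change was -0.21, against -0.027 over all tested. They summed to between 73129 and 87458 CPM in MRL/lpr and between 88394 and 103835 CPM in C57BL/6, mostly miR-26a-5p, with 63663 ± 6257 CPM in MRL/lpr and 73705 ± 7714 CPM in C57BL/6 (SD, n = 3). Of 12 miRNAs of tubular epithelium 11 were tested. At the threshold 2 were higher in MRL/lpr (miR-204-5p and miR-802-5p) and none was lower, where 6.21% of all tested miRNAs passed. The log2 fold changes of this list had a median of 0.11 and ran from -0.42 for miR-10b-5p to 1.75 for miR-802-5p. Of 8 leukocyte and myeloid miRNAs 1, miR-155-5p, was higher in MRL/lpr at the threshold and none was lower, again beside 6.21% of all tested. Log2 fold changes in this list ran from -0.89 for miR-511-3p to 1.45 for miR-142a-3p. The 8 summed to between 9418 and 11123 CPM in MRL/lpr and, outside C57BL/6 replicate 2, to 6068 and 6246 CPM in C57BL/6. Most of each sum was miR-146a-5p, with a log2 fold change of -0.55. No member passed among 2 endothelial, 3 smooth muscle, 3 erythroid, 3 muscle miRNAs and 1 liver miRNA. The part of these cells in the miR-30 values was not tested. In C57BL/6 replicate 2, 4 of the 10 members had their lowest and 1 its highest value of the 6 libraries, and without it the 5p median was 0.26 and the 3p median -0.26, with no member past the threshold (lowest edgeR adjusted p = 0.192).

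The profile of the summed 5p level over the 6 libraries was compared with that of 143 other named miRNAs tested at a mean of at least 100 CPM, by the mean absolute difference of their log2 levels after centring. The 5 nearest were miR-15a-5p (0.091 on the log2 scale), miR-196b-5p (0.10), miR-140-3p (0.11), miR-532-5p (0.11) and miR-374b-5p (0.11). Among the members themselves, miR-30d-5p lay nearest to the sum at 0.049 and miR-30e-5p farthest of the 5p arms at 0.17, while the 3p arms lay at 0.18 to 0.37. The members of the 5p arm are part of that sum. miR-15a-5p had 1429 ± 104 CPM in MRL/lpr and 1232 ± 130.4 CPM in C57BL/6 (SD, n = 3), with an edgeR adjusted p of 0.526 for a log2 fold change of 0.21 ± 0.17 SE.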

How the data were processed

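Total RNA from kidney was made into small RNA libraries by adapter ligation, PCR and gel size selection, per the labels' protocols. No source at hand mentions molecular identifiers. The Wilson intervals of shares cover counting error only, while the intervals from edgeR and limma rest on the spread between libraries. The authors deposited 1 table of raw counts, with a row for each mature miRNA. Bowtie2, DESeq2 and GRCm38.p6 are named without a role in the submitters' processing notes. How reads were assigned to miRNAs is not stated there. Columns were tied to samples through the group, age and replicate number in their names, which are not the titles. Members and lists were chosen with earlier results of these data known.

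The test of single miRNAs used edgeR 4.0.16 under R 4.3.3 (filterByExpr with minimum count 10 and total 15, TMM, robust quasi-likelihood, group alone) and Benjamini-Hochberg adjustment over 451 miRNAs at 0.05. Standard errors came from the coefficient and its F statistic. Arm balance was tested with limma 3.58.1 on log2 ratios of 5p to 3p CPM after adding 1, and shares by exact two-sided permutation. Both model tests were tried on simulated data. Libraries within a group differed by more than sampling noise (chi-square of 123 to 726 per degree of freedom). Named were all members, relatives listed by name (miR-30c-1-3p and miR-384-5p) and the 5 nearest profiles. List members were named as the most abundant. In the podocyte, tubular and leukocyte lists those past the threshold or at either end of the log2 fold changes were also named, chosen after their values were seen. Alternatives used other scalings, filters and pseudocounts, DESeq2 1.42.0, limma-voom, a replicate block and each library left out. Figures used matplotlib 3.10.9.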

Additional observations from a re-analysis of the deposited data

How the results depend on the processing

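No member of the family passed the threshold, and none of the 4 hairpins passed for arm balance, in any setting run. Over all tested miRNAs 28 passed, against 64 without a filter, 44 with DESeq2, 13 with the replicate block and 5 to 54 when 1 library was left out. The labels do not say whether the replicate numbers pair libraries. After centring within each strain, correlations of same-numbered libraries were -0.37, 0.034 and -0.37. Those of libraries with different numbers ran from -0.18 to 0.39. With so few libraries per strain these values cannot settle whether the numbers pair them. With the replicate block 0 members and 0 miR-30 hairpins passed. With library-size scaling the median over all tested miRNAs was 0.12, against -0.027 with TMM, and the log2 ratio of the summed 5p level was 0.40, against 0.24; without 1 library that ratio ran from 0.16 to 0.34. Of the 5 nearest profiles 2 stayed when the largest difference replaced the mean. The log2 fold change of miR-30a-3p was 0.035 with library-size scaling. That of miR-30e-3p was 0.14 with library-size scaling, 0.0054 with TMM computed without the 10 most abundant miRNAs and 0.022 with a minimum of 10 CPM in 3 libraries. It was 0.023, 0.019 and 0.10 without MRL/lpr replicate 1, MRL/lpr replicate 2 and C57BL/6 replicate 1, with a range over left-out libraries from -0.20 to 0.10. That of miR-30e-5p was -0.084 without MRL/lpr replicate 3, with a range from -0.084 to 0.31. The cause was not tested. The other 7 members kept their sign in all 16 settings. miR-30b-3p had the fewest counts of all members in every library, with 106 to 161 in MRL/lpr and 138 to 238 in C57BL/6.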
